A study of Saccharomyces cerevisiae with 21 samples.

Results

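The *IZH* genes *IZH1*, *IZH2*, *IZH3* and *IZH4* encode the yeast members of a family of multi-span membrane proteins. They were found in the deposited count table by their systematic names YDR492W, YOL002C, YLR023C and YOL101C, and are 4 of the 7122 genes in it. All 4 passed the filter on low counts, which kept 6164 genes. The family was chosen by a readout of these same data, since the differences of *IZH4* from wild-type were known beforehand. The values of *IZH4* are therefore given as a description with no test, and tests are given only for *IZH1*, *IZH2* and *IZH3*. These members and the gene lists read below were also chosen with earlier results of these data known.

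RNA sequencing of rRNA-depleted RNA covered 21 libraries from exponentially growing cultures, 3 for each of 7 strains in the BY4741 background. Wild-type, *mga2Δ* and *ino4Δ* cells carried no plasmid and were grown in SDC+All. Cells called *OLE1* were wild-type with the plasmid pRS316-GPDprom-Ole1-mCh. Cells called *MGA2* and *mga2ΔTM* were *mga2Δ* cells with pRS316-GPDprom-Mga2-mCh or pRS316-GPDprom-Mga2deltaTM-mCh. The *ino4Δ mga2ΔTM* cells were *ino4Δ* cells with the latter plasmid and kept the chromosomal *MGA2* gene. All 4 plasmid-bearing strains were grown in SDC-URA. An empty-plasmid control is not among the samples. In comparisons of plasmid-bearing strains with strains in SDC+All, the overexpressed gene, the plasmid and the medium therefore cannot be told apart. The *GPD* promoter is a strong constitutive promoter, so these strains do not show Mga2 at its natural level. Library totals ranged from 12552418 to 18372240 counts. The engineered genes and the plasmid marker *URA3* matched the labels in all libraries: *MGA2* had at most 10 counts in *mga2Δ*, *INO4* at most 29 in both *ino4Δ* strains and *URA3* at most 1 without a plasmid. In such bulk RNA, fewer cells with a transcript and less transcript in each cell cannot be told apart.

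Izh proteins belong to the PAQR family, which in humans includes the adiponectin receptors and membrane progestin receptors. In yeast the family was named for its part in zinc homeostasis. *IZH1* and *IZH2* are known targets of Zap1, the zinc-responsive activator, and Izh2 is the receptor of the plant defence protein osmotin. Overproduction of Izh2 is known to lower *FET3* expression. *IZH2* and *IZH4* are also known to respond to fatty acids. Mga2 is the membrane-anchored activator of the desaturase gene *OLE1*. Its anchor reads the packing of acyl chains in the ER and nuclear membrane, and its processed soluble part acts in the nucleus. Mga2ΔTM lacks the transmembrane helix and is soluble without processing. Ino4, together with Ino2, activates genes of phospholipid synthesis.

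In the R64 annotation of RefSeq each gene is a single coding part that overlaps no other gene. *IZH1* lies on the plus strand of chromosome IV (1434924 to 1435874) and codes for 316 residues. *IZH2* lies on the minus strand of chromosome XV (323411 to 324364), with 317 residues. *IZH3*, the longest, is on the minus strand of chromosome XII (185498 to 187129), with 543 residues. *IZH4* is on the minus strand of chromosome XV (126982 to 127920), with 312 residues. The gene descriptions in the deposited table give *IZH1* and *IZH4* as paralogs from the whole-genome duplication. Their translated products were 32.4% identical over 284 aligned residues, whereas Izh1 and Izh2 were 42.8% identical over 311. No pair of coding sequences shared more than 12 bases in a row, and every 50-base window in each of the 4 coding sequences occurs only once in the genome. Reads of the length sequenced here could thus be told apart among the members.

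The stretches upstream of *IZH2* and *IZH4* are shown because their transcripts followed each other most closely among the 6 pairs of members. Each is the 240 bases before the start codon in R64, read 5′ to 3′ on the strand of the gene, at chrXV:324365-324604 (minus strand) and chrXV:127921-128160 (minus strand). Capitals mark a run of 10 bases that both contain, starting 144 bases before the start codon of *IZH2* and 195 before that of *IZH4*.
IZH2: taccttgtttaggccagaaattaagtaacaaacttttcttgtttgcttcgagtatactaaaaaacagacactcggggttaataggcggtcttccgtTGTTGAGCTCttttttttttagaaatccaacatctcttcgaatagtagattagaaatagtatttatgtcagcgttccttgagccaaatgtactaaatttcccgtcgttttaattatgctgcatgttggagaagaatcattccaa
IZH4: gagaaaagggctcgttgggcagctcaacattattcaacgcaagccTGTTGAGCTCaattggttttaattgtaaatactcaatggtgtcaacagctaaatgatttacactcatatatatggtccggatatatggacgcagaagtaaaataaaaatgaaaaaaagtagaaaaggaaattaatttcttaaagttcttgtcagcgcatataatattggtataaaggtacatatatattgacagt

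This run, searched on both strands, occurs in the 500 bases before the start codon of 5 of 6019 genes (0.08%), which are *IZH2*, *IZH4*, *CSR1*, *DSF1* and *MSN2*. It was picked after the values were seen, and every pair of members shares a run of 10 or 11 bases in these windows, so that it is a description only. In *IZH2* it overlaps a near match to the low oxygen response element through which Mga2 activates *OLE1*. The letters searched were ACTCAACAA, on both strands. The exact element is found in the windows of 0.382% of genes and with up to 1 mismatch in 15.318%. The near match in *IZH2* reads GCTCAACAA on the reverse strand and begins 145 bases before the start codon. The other 3 members held no match with up to 1 mismatch. The exact element of *OLE1*, at chrVII:398265-398313 (plus strand) with 20 bases on either side and the element in capitals, is shown for comparison. The zinc-responsive element of Zap1 was searched as ACCTT and AAGGT with any 1 base between them, on both strands, and is found exactly in 0.15% of windows and with up to 1 mismatch in 1.96%. Among the members, only the *IZH1* window held such a near match. It begins 417 bases before the start codon and is shown in capitals at chrIV:1434487-1434537 (plus strand).
OLE1: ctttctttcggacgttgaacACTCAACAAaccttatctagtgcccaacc
IZH1: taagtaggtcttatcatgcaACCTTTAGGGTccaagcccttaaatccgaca

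*IZH4*, the member with the lowest level in wild-type, varied most between strains. Its counts were 169, 130 and 224 in the wild-type libraries. They were 36, 40 and 27 in *mga2Δ* and 58, 40 and 28 in *OLE1* cells. In *MGA2* cells they reached 860, 806 and 634, and in *mga2ΔTM* cells 2172, 1723 and 2104. *ino4Δ* cells had 278, 336 and 300 counts, and *ino4Δ mga2ΔTM* cells 2101, 1665 and 2075. Every *mga2Δ* and *OLE1* library thus lay below every wild-type library, and every library of the other 4 strains lay above.

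In CPM, which are counts scaled to library size with TMM factors for composition, *IZH4* was at 2.08 ± 0.417 in *mga2Δ* cells and 142.5 ± 8.84 in *mga2ΔTM* cells (SD, n = 3 libraries), a ratio of 68.65 between the lowest and highest strain means. From lowest to highest, the order was *mga2Δ*, *OLE1*, wild-type, *ino4Δ*, *MGA2*, *ino4Δ mga2ΔTM* and *mga2ΔTM*. The libraries of *mga2Δ* and *OLE1* overlapped, as did those of *ino4Δ mga2ΔTM* and *mga2ΔTM*, and no other neighbours in this order did. Against wild-type, *IZH4* was 12.34-fold higher in *mga2ΔTM* cells (3.63 ± 0.17 on the log2 scale, ± SE), 10.05-fold higher in *ino4Δ mga2ΔTM* cells (3.33 ± 0.17) and 4.63-fold higher in *MGA2* cells (2.21 ± 0.17). In *ino4Δ* cells the log2 difference was 0.58 ± 0.18. It was -2.47 ± 0.23 in *mga2Δ* and -2.05 ± 0.22 in *OLE1* cells.

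**Figure D1:**
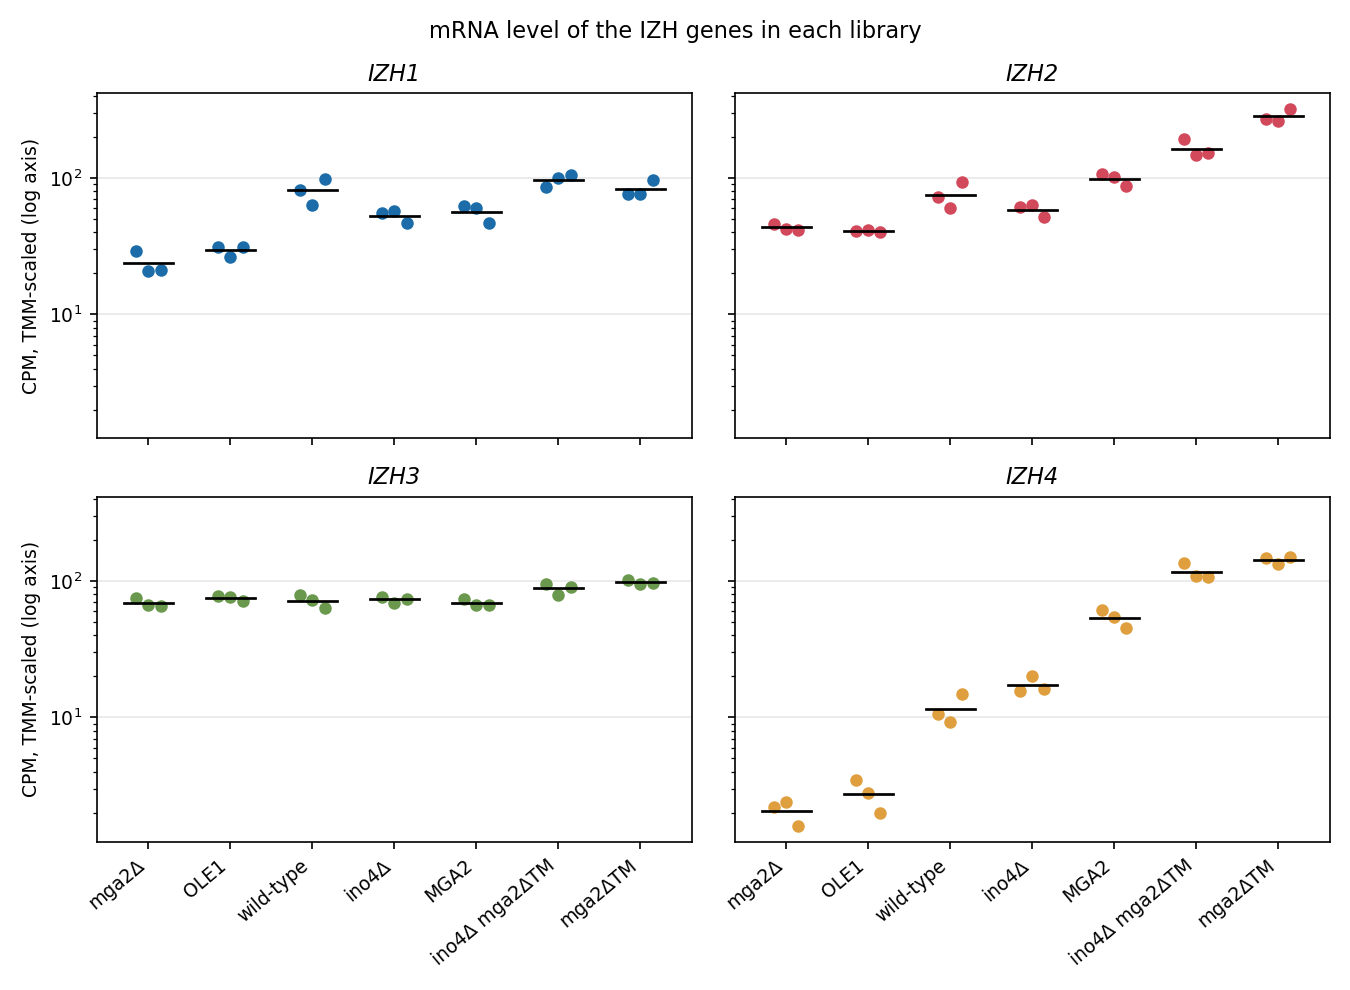
Level of each *IZH* gene by strain, in TMM-scaled CPM on a log axis. Points are the 3 libraries of a strain and black lines their mean. *IZH4* spans a ratio of 68.65 between strain means and *IZH3* a ratio of 1.42.

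*IZH2*, the osmotin receptor gene, was also highest in *mga2ΔTM* cells and lowest in *mga2Δ* and *OLE1* cells, over a smaller range. In *ino4Δ* cells its mean lay below wild-type, whereas that of *IZH4* lay above. Wild-type libraries had 1161, 851 and 1405 counts. *mga2ΔTM* libraries had 4018, 3372 and 4502 counts, and *ino4Δ mga2ΔTM* libraries 3005, 2266 and 2975, all above wild-type. *mga2Δ* libraries had 750, 702 and 701 counts and *OLE1* libraries 679, 595 and 558, all below wild-type. The counts were 1500, 1504 and 1226 in *MGA2* cells and 1088, 1058 and 959 in *ino4Δ* cells, which in CPM overlapped wild-type.

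The *IZH2* transcript rose 3.75-fold in *mga2ΔTM* cells, by 1.91 ± 0.14 on the log2 scale (adjusted p = 6.46e-09, edgeR's quasi-likelihood test with Benjamini-Hochberg adjustment over all genes), and 2.17-fold in *ino4Δ mga2ΔTM* cells, by 1.12 ± 0.13 (adjusted p = 1.13e-06). It fell by 0.80 ± 0.14 in *mga2Δ* cells (adjusted p = 2.42e-04) and by 0.89 ± 0.14 in *OLE1* cells (adjusted p = 1.47e-04). In *MGA2* cells the difference of 0.39 ± 0.13 did not pass the test (adjusted p = 0.0806). In *ino4Δ* cells it was -0.36 ± 0.14 with an adjusted p of 0.0273, short of the 1.5-fold change that a call also required. That difference was -0.19 (adjusted p = 0.205) without wild-type library 3 and -0.15 (adjusted p = 0.312) with libraries scaled by their totals. The order of means ran from *OLE1* (40.7 CPM) over *mga2Δ* (43.4), *ino4Δ* (58.6), wild-type (75.3), *MGA2* (98.4) and *ino4Δ mga2ΔTM* (163.6) to *mga2ΔTM* (282.7). Libraries of *ino4Δ* overlapped wild-type, and those of wild-type overlapped *MGA2*, whereas the other neighbours did not overlap.

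*IZH1*, the paralog of *IZH4*, was lowest in *mga2Δ* and *OLE1* cells and was not above wild-type by the test in any strain. Its counts were 1302, 899 and 1470 in wild-type, 471, 348 and 356 in *mga2Δ* and 515, 377 and 440 in *OLE1* cells. They were 871, 899 and 662 in *MGA2* cells and 985, 960 and 860 in *ino4Δ* cells. *mga2ΔTM* cells had 1132, 995 and 1353 counts and *ino4Δ mga2ΔTM* cells 1348, 1544 and 2047. In CPM the latter 2 strains overlapped wild-type, and the other 4 lay below it in every library.

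The *IZH1* transcript fell by 1.77 ± 0.16 on the log2 scale in *mga2Δ* cells (adjusted p = 4.13e-07) and by 1.45 ± 0.16 in *OLE1* cells (adjusted p = 3.55e-06). It fell by 0.61 ± 0.16 in *ino4Δ* cells (adjusted p = 0.00258), close to the 1.5-fold threshold. That call was lost when libraries were scaled by their totals alone (-0.40) and without wild-type library 3 (-0.47) or *ino4Δ* library 3 (-0.55). In *MGA2* cells *IZH1* was at -0.52 ± 0.16 (adjusted p = 0.0439), short of 1.5-fold, and this value depended on single libraries. It passed without wild-type library 2 (-0.68) or *MGA2* library 1 (-0.60), and its adjusted p was 0.237 without wild-type library 3 (-0.37) and 0.181 without *MGA2* library 3 (-0.42). The adjusted p was 0.186 in a fit of only these strains and 0.0573 with a replicate block. In *mga2ΔTM* cells the difference was 0.04, with a 95% interval from -0.29 to 0.36 (adjusted p = 0.903). *ino4Δ mga2ΔTM* cells had 0.26 ± 0.15 (adjusted p = 0.154). The levels of *mga2Δ* (23.7 CPM) and *OLE1* (29.5) overlapped, as did those of *ino4Δ* (52.9) and *MGA2* (56.5), and those of wild-type (80.8), *mga2ΔTM* (82.8) and *ino4Δ mga2ΔTM* (96.9).

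*IZH3*, which codes for the longest member, varied least and no comparison with wild-type passed both thresholds. Its counts were 1251, 1028 and 961 in wild-type, 1508, 1243 and 1366 in *mga2ΔTM* and 1493, 1214 and 1778 in *ino4Δ mga2ΔTM* cells. In CPM the *mga2ΔTM* libraries (95.5 to 101.7) and the *ino4Δ mga2ΔTM* libraries (78.6 to 95.5) lay above all wild-type libraries (63.6 to 78.3). The other 4 strains ranged from 935 to 1367 counts, and their means from 69.0 to 75.0 CPM overlapped wild-type (71.5 ± 7.43, SD, n = 3). Against wild-type the log2 difference was 0.45 ± 0.08 in *mga2ΔTM* cells (1.37-fold, adjusted p = 6.01e-04) and 0.30 ± 0.08 in *ino4Δ mga2ΔTM* cells (adjusted p = 4.39e-03). In *mga2Δ*, *MGA2*, *OLE1* and *ino4Δ* cells it lay between -0.05 and 0.07, with adjusted p from 0.63 to 0.783.

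Among all genes tested against wild-type, 11.9% were called in *mga2Δ*, 3.97% in *MGA2*, 7.95% in *mga2ΔTM*, 7.07% in *OLE1*, 29.3% in *ino4Δ* and 27.2% in *ino4Δ mga2ΔTM* cells. Of the 3 tested members, *IZH1* and *IZH2* were called in *mga2Δ* and in *OLE1* cells, both lower. *IZH2* alone was called in *mga2ΔTM* and in *ino4Δ mga2ΔTM* cells, higher in each. *IZH1* alone was called in *ino4Δ* cells, and none in *MGA2* cells. These 6 comparisons share the wild-type libraries. In wild-type, library 3 had the highest level of *IZH1* (97.2 CPM) and *IZH4* (14.8 CPM) and library 2 the lowest, 63.6 and 9.20 CPM. The coefficient of variation in wild-type was 20.8% for *IZH1*, 21.9% for *IZH2* and 25.4% for *IZH4*, but 10.4% for *IZH3*. *ZAP1* was at 143.7, 198.8 and 257 CPM in these libraries, also highest in library 3 but lowest in library 1. *OLE1* (671.2, 522.7 and 877.7 CPM) and *FET3* (452.8, 354.1 and 610.4 CPM) were highest in library 3 and lowest in library 2. The part of this spread in the results was not tested beyond leaving out each library in turn.

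**Figure D2:**
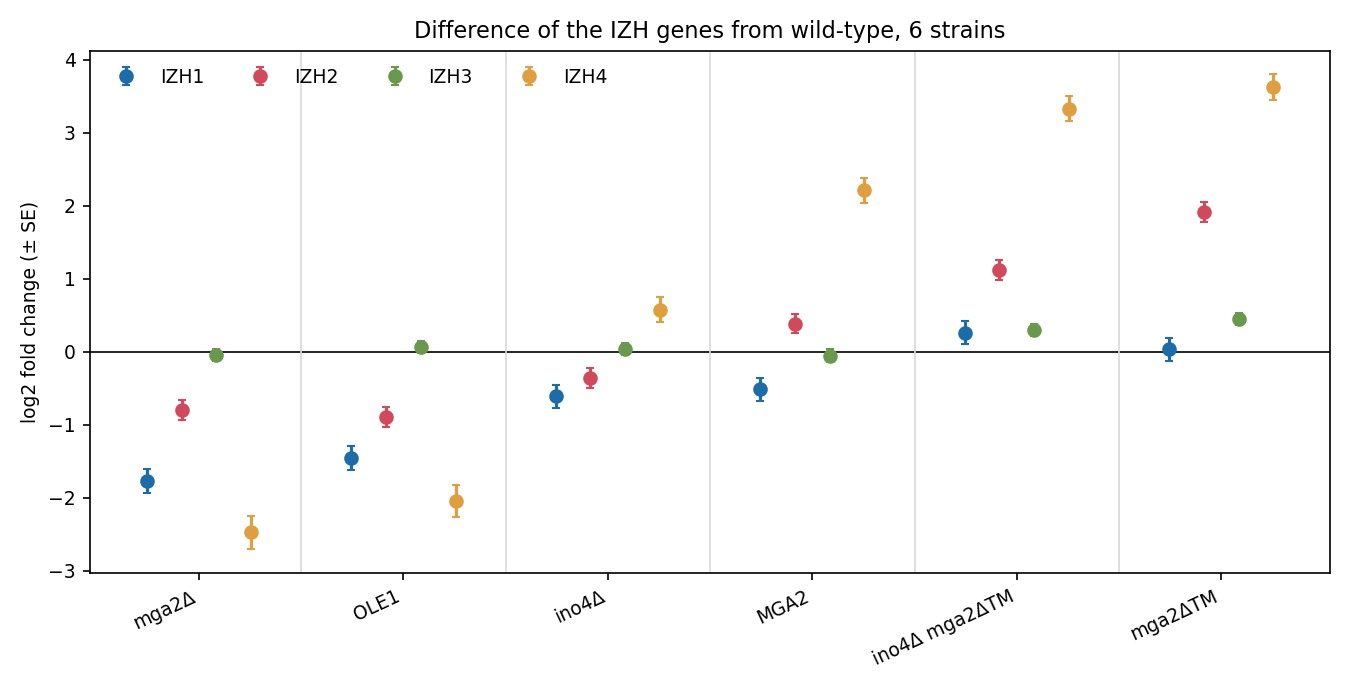
Log2 fold change of the 4 *IZH* genes in each strain against wild-type, with error bars of 1 SE from the fit over 21 libraries. *IZH4* reached 3.63 in *mga2ΔTM* cells and -2.47 in *mga2Δ* cells, while *IZH3* stayed between -0.05 and 0.45.

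Per kilobase of coding sequence, which allows levels of different genes to be compared, the makeup of the family differed between strains. In wild-type cells *IZH1* made up 38.4 ± 1.98% of the summed family level and *IZH4* 5.54 ± 0.587% (SD, n = 3). The *IZH4* share was 1.92 ± 0.379% in *mga2Δ*, 2.39 ± 0.586% in *OLE1* and 10.2 ± 1.15% in *ino4Δ* cells. It was 21.7 ± 0.894% in *MGA2*, 25.6 ± 1.24% in *mga2ΔTM* and 27.3 ± 1.60% in *ino4Δ mga2ΔTM* cells. *IZH4* was thus the least abundant member in the 3 strains without a plasmid and in *OLE1* cells.

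The balance of the paralogs *IZH1* and *IZH4* differed in the same way. The ratio of *IZH4* to *IZH1* per kilobase was 0.144 ± 0.0116 in wild-type and 0.0902 ± 0.0227 in *mga2Δ* cells. It was 0.959 ± 0.0469 in *MGA2*, 1.76 ± 0.184 in *mga2ΔTM* and 1.23 ± 0.302 in *ino4Δ mga2ΔTM* cells. *IZH2* made up 49.7 ± 1.29% of the family in *mga2ΔTM* cells, against 35.7 ± 2.28% in wild-type. The summed level was 219.9 ± 35.0 CPM per kilobase in wild-type, 115.0 ± 10.7 in *mga2Δ* and 595.1 ± 51.1 in *mga2ΔTM* cells. These shares contain *IZH4* and carry no test.

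**Figure D3:**
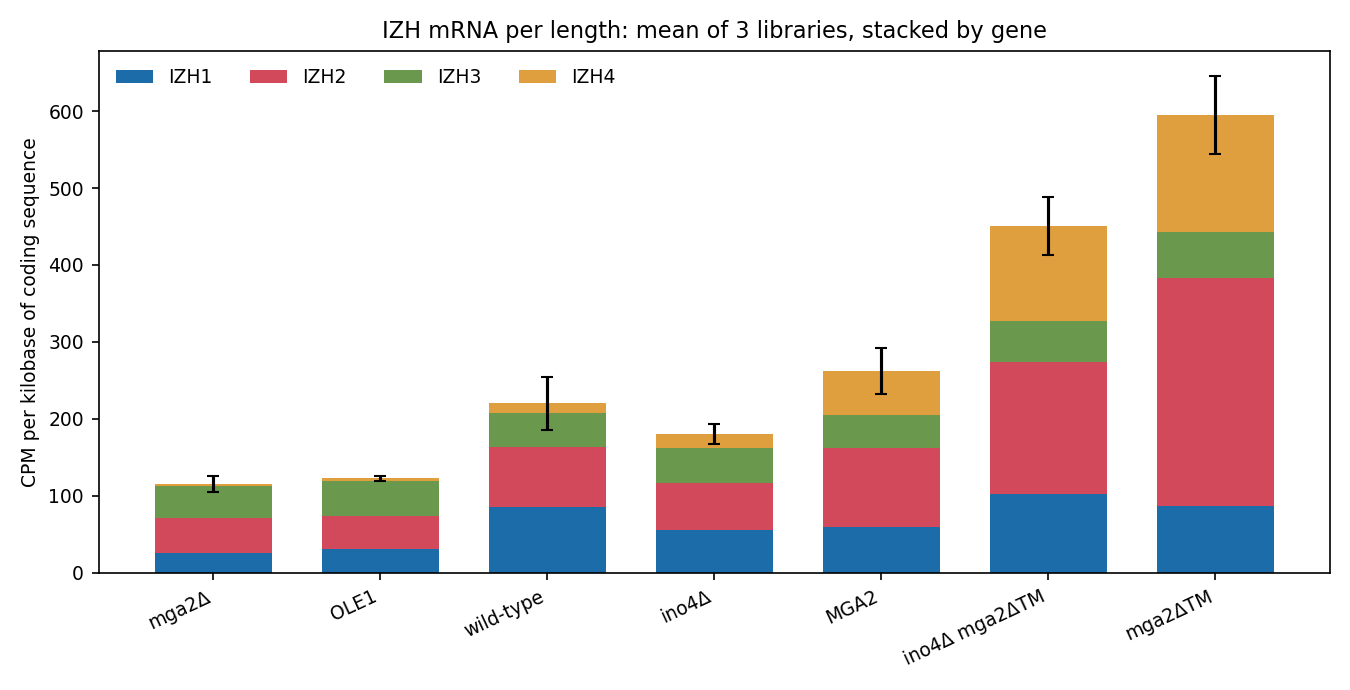
Summed level of the *IZH* genes in CPM per kilobase of coding sequence, as means of 3 libraries stacked by gene, with the SD of the sum as error bars. The sum ranged from 115.0 in *mga2Δ* to 595.1 in *mga2ΔTM* cells.

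Comparing *mga2ΔTM* with *MGA2* cells sets the soluble against the full-length protein, in strains that share medium, plasmid backbone and the deletion of *MGA2*. Full-length Mga2 can also be processed to a soluble part, so soluble and anchored protein are not fully separated. *IZH2* was 2.87-fold higher with Mga2ΔTM, by 1.52 ± 0.14 on the log2 scale (adjusted p = 6.97e-07), in a comparison where 3.41% of genes were called. *IZH4* was 2.66-fold higher (1.41 ± 0.15). *IZH1* (0.55 ± 0.16, adjusted p = 0.0304) and *IZH3* (0.50 ± 0.08, adjusted p = 5.84e-04) stayed short of 1.5-fold. The *IZH1* comparison passed when libraries were scaled by totals (0.60) and without *MGA2* library 1. Of *MGA2* mRNA itself, *mga2ΔTM* libraries had fewer counts, 17037 to 19155 against 46970 to 61220, and the part of this difference in the result was not tested.

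Putting either form of Mga2 back into *mga2Δ* cells came with higher levels of the same 3 members, with the change of plasmid and medium included. In *MGA2* against *mga2Δ* cells, where 8.87% of genes were called, *IZH1* rose by 1.25 ± 0.16 (adjusted p = 1.69e-05) and *IZH2* by 1.18 ± 0.14 (adjusted p = 4.28e-06). *IZH4* was 25.7-fold higher (4.68 ± 0.21), and *IZH3* was at -0.01 (adjusted p = 0.973). In *mga2ΔTM* against *mga2Δ* cells, with 12.9% of genes called, *IZH1* rose by 1.81 ± 0.16 (adjusted p = 1.29e-07) and *IZH2* by 2.71 ± 0.14 (adjusted p = 5.82e-11). *IZH4* was 68.5-fold higher (6.10 ± 0.21). *IZH3* was at 0.50 ± 0.08 (adjusted p = 1.43e-04), which is below 1.5-fold.

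*OLE1* cells share medium and plasmid backbone with *MGA2* and *mga2ΔTM* cells, so these comparisons do not contain the change of medium. They differ in the chromosomal *MGA2* gene, which *OLE1* cells keep. *IZH1* was higher in *MGA2* cells by 0.94 ± 0.16 (adjusted p = 8.15e-04) and *IZH2* by 1.27 ± 0.14 (adjusted p = 4.71e-06), with 3.5% of all genes called. In *mga2ΔTM* against *OLE1* cells, with 5.09% called, *IZH1* was higher by 1.49 ± 0.16 (adjusted p = 2.28e-06) and *IZH2* by 2.80 ± 0.14 (adjusted p = 5.42e-11). *IZH4* was higher by 4.26 ± 0.21 and 5.67 ± 0.21 in the 2 comparisons. *IZH3* was at -0.12 (adjusted p = 0.433) and 0.38 ± 0.08 (adjusted p = 3.52e-03), without a call.

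Soluble Mga2ΔTM in *ino4Δ* cells was compared with *ino4Δ* alone, where 9.46% of genes were called. *IZH1* rose by 0.87 ± 0.16 (adjusted p = 4.16e-04) and *IZH2* by 1.48 ± 0.14 (adjusted p = 2.10e-07). *IZH4* was 6.73-fold higher (2.75 ± 0.17), and *IZH3* was at 0.27 ± 0.08 (adjusted p = 0.0204), below 1.5-fold. Against *mga2ΔTM*, with 13% of genes called, the *ino4Δ mga2ΔTM* cells had less *IZH2*, which fell by 0.79 ± 0.13 (1.73-fold, adjusted p = 1.45e-04). *IZH1* (0.23, adjusted p = 0.257) and *IZH3* (-0.15, adjusted p = 0.169) were not called, and *IZH4* was at -0.30 ± 0.15. Between the deletion strains in SDC+All, *ino4Δ* against *mga2Δ* with 11.9% called, *IZH1* was higher by 1.16 ± 0.16 (adjusted p = 2.54e-05) and *IZH4* by 3.05 ± 0.22. *IZH2* was at 0.43 ± 0.14 (adjusted p = 0.0183), below 1.5-fold, and *IZH3* at 0.08 (adjusted p = 0.496). *INO4* lies 15095 bases from *IZH4* on chromosome XV, with 8 genes between them.

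**Figure D4:**
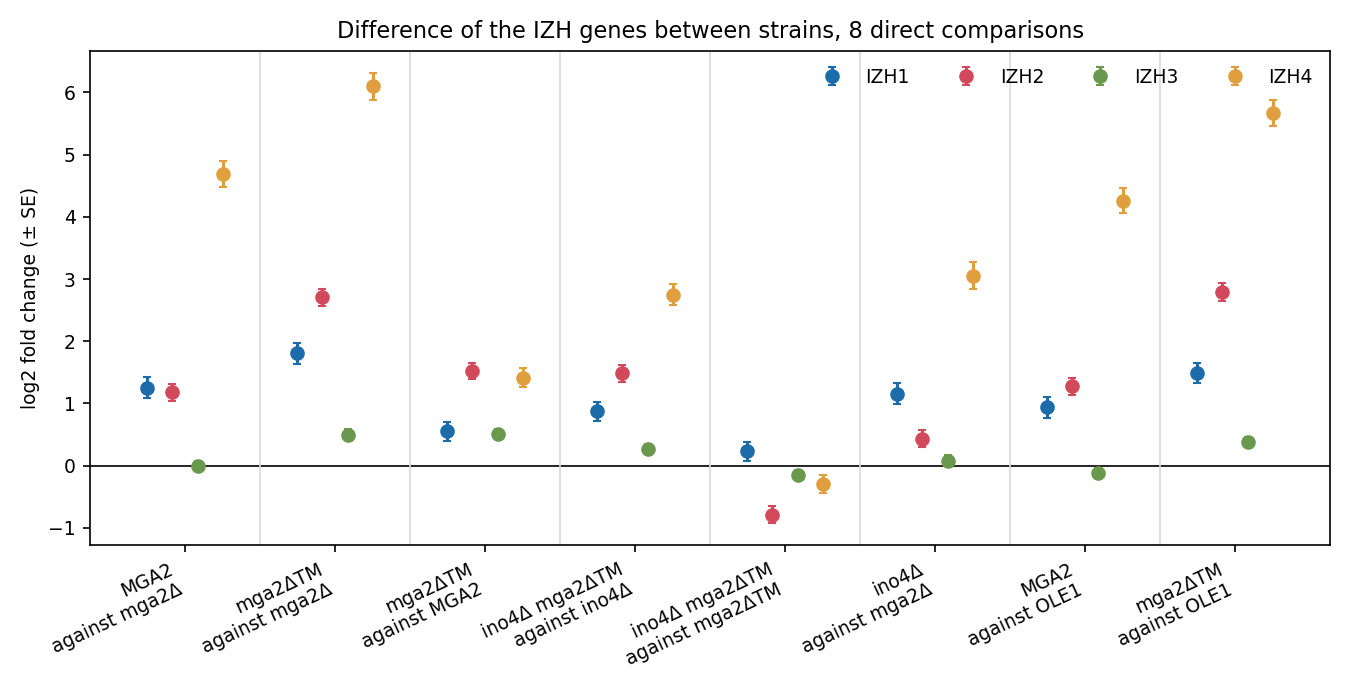
Log2 fold change of the 4 *IZH* genes in 8 direct comparisons between strains, with error bars of 1 SE. *IZH4* reached 6.10 in *mga2ΔTM* against *mga2Δ* cells, and *IZH2* was the only tested member called in *mga2ΔTM* against *MGA2* cells, at 1.52.

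The genes next to the members were read in the same fit. *TPT1* and *PKH2*, on either side of *IZH4*, and *PHO80*, upstream of *IZH2*, were called in no comparison with wild-type. *PFA4*, downstream of *IZH2*, fell by 0.67 ± 0.08 in *ino4Δ* cells (adjusted p = 5.84e-07). *PKH1*, upstream of *IZH1* and coding for a kinase of sphingolipid signalling, rose by 1.08 ± 0.08 in *ino4Δ mga2ΔTM* cells (adjusted p = 1.74e-09). *UBR2*, upstream of *IZH3*, rose by 0.65 ± 0.10 in the same cells (adjusted p = 2.48e-05). *MZM1* and *SDO1*, downstream of *IZH1* and *IZH3*, were not called.

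The transcripts most like *IZH4* over the 21 libraries, by Pearson's r of log2 CPM, were *VAM3* (0.952), the sterol synthesis gene *HMG2* (0.949), the alcohol acetyltransferase gene *ATF1* (0.944), *TDA4* (0.944) and *IZH2* (0.929). *VAM3* codes for a vacuolar syntaxin. These values are descriptions over libraries that share strains, and carry no p. The amplitudes differed widely. In *mga2ΔTM* cells *VAM3* was at 0.64 and *HMG2* at 0.62 on the log2 scale, against 3.63 for *IZH4*, while *ATF1* was at 1.81 and *TDA4* at 1.67. Nearest to *IZH2* were *TDA4* (0.969), *HMG2* (0.961) and *SEC22* (0.959), which codes for a SNARE of ER-Golgi transport. Nearest to *IZH1* were *IMD2* (0.890), a gene of guanine nucleotide synthesis, *VTC5* (0.853), a gene of vacuolar polyphosphate synthesis, and *IZH4* (0.849). Nearest to *IZH3* were YER187W (0.873), *ASG1* (0.843) and *BCK1* (0.841), a kinase gene of cell wall integrity signalling. Between members, r was 0.799 for *IZH1* with *IZH2*, 0.753 for *IZH2* with *IZH3*, 0.627 for *IZH3* with *IZH4* and 0.507 for *IZH1* with *IZH3*.

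**Figure D5:**
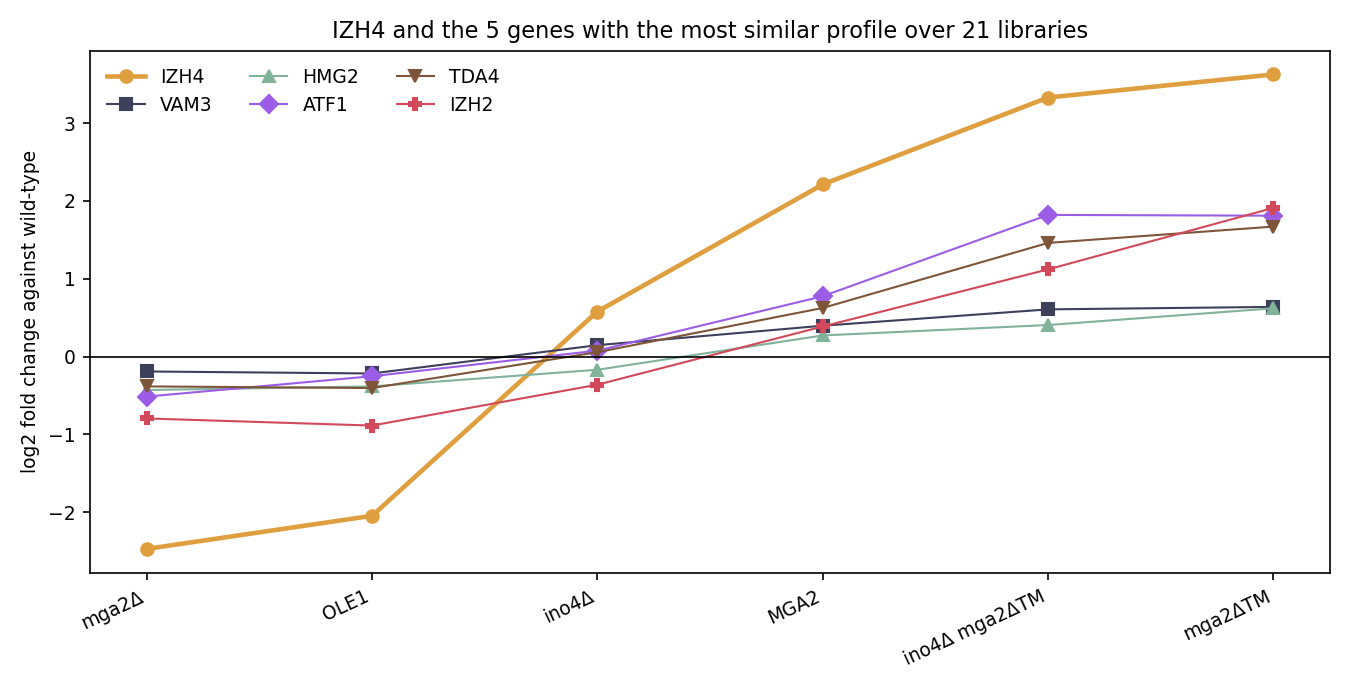
Log2 fold change against wild-type of *IZH4* and of the 5 genes with the highest Pearson r to it over 21 libraries. All reached their highest values in *mga2ΔTM* and *ino4Δ mga2ΔTM* cells, from 0.41 for *HMG2* in *ino4Δ mga2ΔTM* to 3.63 for *IZH4* in *mga2ΔTM*.

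Regulators and pathways tied to the family were read in the same fit. *SPT23*, the homologue of *MGA2*, was called in no strain, with log2 differences from -0.03 to 0.21. *ATF1* and *OLE1*, known targets of Mga2, rose in *mga2ΔTM* cells by 1.81 ± 0.11 (adjusted p = 4.52e-10) and 1.68 ± 0.18 (adjusted p = 2.14e-06). In *MGA2* cells *ATF1* rose by 0.77 ± 0.11 (adjusted p = 1.00e-04) and *OLE1* by 0.96 ± 0.18 (adjusted p = 0.00178). The list of 5 genes of the Mga2 branch contains the engineered genes *MGA2* and *OLE1*. Of these 5, 3 rose and none fell in *MGA2* and in *mga2ΔTM* cells, with the overexpressed *MGA2* among the 3. Of the 2 that fell in *mga2Δ* cells, 1 is the deleted *MGA2*. In *ino4Δ mga2ΔTM* cells 3 rose, the overexpressed *MGA2* among them, and 1 fell. For *OLE1* cells, 1 rose, which is the overexpressed *OLE1*, and 1 fell, and in *ino4Δ* cells 1 fell. Except in *ino4Δ* cells, these counts were thus partly fixed by how the strains were made. Over all genes, 3.97%, 7.95%, 11.9%, 27.2%, 7.07% and 29.3% were called in these strains, in the order named. The 1 of 5 in *ino4Δ* cells is near the share over all genes. *FET4*, also on the list, was at -0.10 in *mga2ΔTM* (adjusted p = 0.767) and -0.41 in *MGA2* cells (adjusted p = 0.218). It was called lower in *ino4Δ mga2ΔTM* (-0.67, adjusted p = 0.00732) and *ino4Δ* cells (-1.15, adjusted p = 8e-05). The chromosomal *MGA2* transcript fell by 0.99 ± 0.11 in *OLE1* cells (adjusted p = 2.99e-06).

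*ZAP1*, the zinc-responsive activator gene, fell by 1.20 ± 0.30 in *MGA2* (adjusted p = 0.0172), 1.05 ± 0.30 in *OLE1* (adjusted p = 0.02), 0.98 ± 0.30 in *ino4Δ* (adjusted p = 0.00982) and 1.96 ± 0.31 in *ino4Δ mga2ΔTM* cells (adjusted p = 3.64e-05). It was not called in *mga2Δ* (-0.25, adjusted p = 0.524) or *mga2ΔTM* cells (-0.78, adjusted p = 0.0711). *ZAP1* varied between libraries, at 98.2, 120.3 and 42.7 CPM in *MGA2* cells and from 143.7 to 257 CPM in wild-type. Leaving out single libraries was not done for this gene. The list of zinc genes had 16 of 17 members tested. In *ino4Δ* cells 9 of them fell and 1 rose, with a list median of -0.79 against 0.03 over all genes, and in *ino4Δ mga2ΔTM* cells 8 fell and none rose (median -0.61). In *mga2ΔTM* cells 4 fell and 1 rose, in *OLE1* cells 3 fell and 1 rose, in *mga2Δ* cells 2 fell and 1 rose and in *MGA2* cells 2 fell and none rose. The share of all tested genes called in either direction was 29.3%, 27.2%, 7.95%, 7.07%, 11.9% and 3.97% in these strains, in the order named, so that 3 of 16 in *mga2Δ* cells is near the share over all genes. The plasma membrane zinc transporter gene *ZRT1* fell by 2.07 ± 0.36 in *ino4Δ* cells (adjusted p = 9.76e-05) and fell by 3.78 ± 0.39 in *ino4Δ mga2ΔTM* cells (adjusted p = 2.46e-07). *ZPS1*, for a cell wall protein, fell by 3.44 ± 0.70 in *ino4Δ* cells (adjusted p = 4.05e-04) and fell by 6.38 ± 0.81 in *ino4Δ mga2ΔTM* cells (adjusted p = 2.94e-06). *ZRC1*, for a vacuolar zinc transporter, fell by 1.10 ± 0.10 in *ino4Δ* cells (adjusted p = 4.09e-08) and by 0.83 ± 0.10 in *mga2Δ* cells (adjusted p = 7.49e-06).

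*FET3*, the multicopper oxidase gene of iron uptake, was read because of its known link to Izh2. It had 7239, 5005 and 9230 counts in wild-type and 12843, 11651 and 14250 in *mga2ΔTM* cells, where it rose by 0.97 ± 0.17 (adjusted p = 4.33e-04). It also rose in *OLE1* cells, by 1.01 ± 0.17 (adjusted p = 3.57e-04), and fell by 1.46 ± 0.17 in *mga2Δ* (adjusted p = 7.79e-06) and by 0.88 ± 0.17 in *ino4Δ* cells (adjusted p = 2.53e-04). In *ino4Δ mga2ΔTM* cells, where *IZH2* was also called higher, *FET3* was at 0.26 (adjusted p = 0.207), and in *MGA2* cells at 0.54 (adjusted p = 0.0539). Of 9 genes of reductive iron uptake, 6 rose in *OLE1* and 3 in *mga2ΔTM* cells, with none falling, and 2 fell in *mga2Δ* cells. In *ino4Δ* cells 2 rose and 2 fell, in *MGA2* cells 1 rose and in *ino4Δ mga2ΔTM* cells 3 rose. Over all genes, 7.07% were called in *OLE1*, 7.95% in *mga2ΔTM*, 11.9% in *mga2Δ*, 29.3% in *ino4Δ*, 3.97% in *MGA2* and 27.2% in *ino4Δ mga2ΔTM* cells. The 3 of 9 in *ino4Δ mga2ΔTM* cells are near the share over all genes. The ferric reductase genes *FRE3* and *FRE2* rose in *mga2ΔTM* cells by 1.24 ± 0.14 (adjusted p = 2.31e-06) and 0.96 ± 0.13 (adjusted p = 2.76e-05). They also rose in *OLE1* cells, where *IZH2* was called lower, by 1.59 ± 0.14 (adjusted p = 1.15e-07) and 1.59 ± 0.13 (adjusted p = 4.65e-08). Both were called higher in *ino4Δ* and *ino4Δ mga2ΔTM* cells as well, and *FRE2* alone in *MGA2* cells. *FTR1*, the permease gene that pairs with *FET3*, was at 0.17 in *mga2ΔTM* cells (adjusted p = 0.386) and fell by 1.10 ± 0.14 in *mga2Δ* cells (adjusted p = 1.06e-05).

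Of 16 genes of the response to oleate, none fell against wild-type in any strain. In *ino4Δ* cells 12 rose (list median 1.24), in *ino4Δ mga2ΔTM* cells 9, in *mga2ΔTM* cells 6, in *mga2Δ* and in *OLE1* cells 5 each and in *MGA2* cells 2. These counts stand beside 29.3%, 27.2%, 7.95%, 11.9%, 7.07% and 3.97% of all genes called in either direction in the same strains. *POT1*, for the thiolase of peroxisomal beta-oxidation, had a low level, with a mean of 4.16 CPM over the 21 libraries. It rose by 4.23 ± 0.30 in *ino4Δ* cells (adjusted p = 1.85e-09) and by 2.23 ± 0.34 in *OLE1* cells (adjusted p = 1.07e-04). *FOX2*, for the multifunctional enzyme of that pathway, rose by 1.52 ± 0.12 in *ino4Δ* (adjusted p = 1.03e-08) and by 0.65 ± 0.13 in *mga2Δ* cells (adjusted p = 5.94e-04). *CAT2*, for carnitine acetyltransferase, rose by 2.07 ± 0.14 in *ino4Δ* (adjusted p = 1.22e-09) and 1.32 ± 0.14 in *mga2ΔTM* cells (adjusted p = 1.73e-06). In *mga2Δ* and in *OLE1* cells 5 genes of this list were thus called higher, and *IZH1* and *IZH2* were called lower. In *mga2ΔTM* and *ino4Δ mga2ΔTM* cells, where 6 and 9 were called higher, *IZH2* was also called higher. In *ino4Δ* cells, where 12 were called higher, *IZH1* was called lower and *IZH2* was not called. In *MGA2* cells, where 2 were called higher, no tested member was called.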

How the data were processed

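RNA-seq of 21 yeast libraries, 3 for each of 7 strains, was analysed. Per the labels and methods, the authors depleted rRNA, reverse transcribed with random primers, mapped single-end 50-base reads to R64-1-1 (STAR 2.5.1b), and HTSeq 0.5.4p3 gave the reads per gene. Whether strand was used in counting is not stated. The deposited raw counts were the input. A second deposited table of normalized values was not used.

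Genes were filtered with filterByExpr (minimum count 10), scaled by TMM, and fitted by robust quasi-likelihood over all libraries, each strain with its own mean, in edgeR 4.0.16 under R 4.3.3. The methods of the study name limma-voom (here limma 3.58.1), which was an alternative, as was DESeq2 1.42.0. Calls required more than a 1.5-fold change and p below 0.05 after Benjamini-Hochberg adjustment over 6164 genes. log2 CPM for correlations used a prior count of 2. Labels do not say whether libraries of a strain came from separate cultures, so p-values measure only the spread between libraries, which may be technical. No 2 libraries of a strain were duplicates. Other alternatives were RLE factors, library totals, other filters, fits restricted to the compared strains, no minimum fold change, a replicate block and leaving out each library.

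The members and gene lists were chosen with earlier results of these data known. Besides the members, the genes named are the engineered genes, *URA3*, *ZAP1*, *SPT23*, *FET3* and direct neighbours. From each list up to 3 genes of smallest adjusted p against wild-type are named, and *FET4* as a further gene of the Mga2 branch. The genes of highest Pearson r are named as well (5 for *IZH4*, 3 for each other member). Libraries were simulated with changes only in *mga2ΔTM* and all other strains at wild-type means, and 6029 genes were tested. In *mga2ΔTM* against wild-type, the fit recovered 23 of 50 genes changed 1.5-fold and 48 of 50 at 2-fold. It recovered all 50 at 3-fold and at 4-fold, and called 5 unchanged genes. Changed genes were drawn from those with more than 50 expected counts at the wild-type level, so genes with lower counts were not covered. Coordinates and sequences came from the RefSeq R64 assembly, read with Biopython 1.88 in Python 3.11.15, and figures were drawn with matplotlib 3.10.9. Proteins were translated from the coding sequences.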

Additional observations from a re-analysis of the deposited data

Results flagged for a closer look

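These comparisons of effects were added after the values were seen. They were not rerun under the alternative settings or without single libraries. The difference that the *mga2ΔTM* plasmid made was larger in *mga2Δ* than in *ino4Δ* cells for *IZH1*, by 0.93 ± 0.22 on the log2 scale (adjusted p = 0.0181, edgeR's quasi-likelihood test), and for *IZH2*, by 1.22 ± 0.19 (adjusted p = 7.66e-04). The same difference of effects passed both thresholds in 3.29% of 6164 genes. It was 0.23 ± 0.12 for *IZH3* (adjusted p = 0.268), and for *IZH4* the value of 3.35 was not tested. The *mga2Δ* strain lacks *MGA2* before the plasmid is added, whereas *ino4Δ* cells keep it, and both arms include the change of medium.

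The difference made by loss of *INO4* was higher with the *mga2ΔTM* plasmid than without it for *IZH1*, by 0.84 ± 0.22 (adjusted p = 0.0153), where 8.97% of genes passed. *IZH1* was at -0.61 in *ino4Δ* against wild-type and at 0.23 in *ino4Δ mga2ΔTM* against *mga2ΔTM* cells. The first of these values ranged from -0.776 to -0.466 without single libraries and was -0.397 with libraries scaled by their totals. For *IZH2* (-0.43, adjusted p = 0.128) and *IZH3* (-0.18, adjusted p = 0.307) this difference did not pass, and for *IZH4* the value of -0.88 was not tested. The strains with the plasmid also differ in the chromosomal *MGA2* gene.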

How the results depend on the processing

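No called difference of *IZH1*, *IZH2* or *IZH3* and no difference of *IZH4* changed direction in any alternative run. For *IZH4*, which carries no test, a value was taken as kept when it moved by less than the spread between replicates. Over 14 comparisons of 4 genes, 492 values obtained without leaving out a library kept their side of the threshold (for *IZH4*, within that spread), 11 passed it in addition and 1 no longer did. Uncalled differences near 0 changed sign: *IZH3* in *MGA2* against *mga2Δ* with RLE factors, DESeq2, no low-count filter or only the compared strains, *IZH3* in *mga2Δ* against wild-type with library totals (0.046), and *IZH1* or *IZH3* in some comparisons without 1 library. Among those kept were all 56 under each of limma-voom, DESeq2, RLE factors, both other filters and the fit of only the compared strains. With a replicate block no call changed, for example *IZH2* in *mga2ΔTM* cells (1.91 against wild-type). The numbers were not taken to pair libraries, since residuals of same-numbered libraries correlated at 0.018 on average over 63 pairs (-0.35 to 0.45) and those of different numbers at -0.0098. Scaling by library totals moved the median of all genes against wild-type by 0.22 in *ino4Δ* and 0.21 in *ino4Δ mga2ΔTM* cells, and by less than 0.1 in the other 4 strains. It took *IZH1* in *ino4Δ* against wild-type to -0.397, below the threshold, and *IZH1* in *mga2ΔTM* against *MGA2* to 0.597, above it. Without the 1.5-fold minimum, further calls were *IZH1* in *MGA2* against wild-type (-0.515) and *mga2ΔTM* against *MGA2* (0.551), *IZH2* in *ino4Δ* against wild-type (-0.362) and *mga2Δ* (0.433), and *IZH3* in *mga2ΔTM* against wild-type (0.453), *MGA2* (0.504), *mga2Δ* (0.50) and *OLE1* (0.384) and in *ino4Δ mga2ΔTM* against wild-type (0.305) and *ino4Δ* (0.271). Leaving out each library in turn gave *IZH1* ranges of -0.776 to -0.466 for *ino4Δ* and -0.677 to -0.368 for *MGA2* against wild-type, and 0.426 to 0.614 for *mga2ΔTM* against *MGA2*. By strain means or Spearman's rho, the 5 genes most like *IZH4* ranked 1 to 17. With 27 to 58 counts a library, *IZH4* in *mga2Δ* and *OLE1* cells is the least precise level among the members.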
